A study of Rattus norvegicus with 16 samples.

Results

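The enzymes of heme biosynthesis were followed as 8 transcripts, Alas1, Alas2, Alad, Uros, Urod, Cpox, Ppox and Fech. The choice was by gene symbol for their place in the pathway and not for their values, though earlier results of these data were known. These transcripts are 8 of the 18031 genes listed for every library. The enzyme of the third step was not analysed here. The libraries came from the whole blood of 16 adult male Sprague-Dawley rats, aged 85 to 90 days, and all 16 carry the same label, saline control. Each animal had been given saline 4 times (1 ml/kg, 2 h apart), and blood was drawn from the heart by needle 3 h after the final dose. Alpha and beta globin mRNA were depleted with capture oligonucleotides before poly(A) selection and stranded paired-end sequencing. No treated group was compared, so the comparisons below ask how these transcripts varied from animal to animal and with which blood cell markers. They also ask whether the transcripts differed between run codes, the letters given here to codes in the file names. The labels do not say what these codes stand for.

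Heme is built from glycine and succinyl-CoA in a chain of reactions that starts in the mitochondrion, passes through the cytosol and ends in the mitochondrion again. The first, rate-limiting reaction is carried out by 2 isoenzymes encoded by different genes, Alas1 in most tissues and Alas2 in erythroid cells. Developing red cells make most of the body's heme for hemoglobin, and young red cells that have just entered the blood (reticulocytes) still carry mRNA for it.

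Libraries held 21466776 to 31189549 estimated counts. All 8 transcripts were present in all 16 libraries, the smallest value being 46 estimated counts (Uros in control 9), against a detection floor of 3 counts. Libraries carried 6 run codes, of which A (controls 1 to 3), B (controls 4, 5, 7, 8 and 10) and D (controls 11 to 14) held at least 3 libraries. Controls 6 and 9 formed run C, and controls 15 and 16 runs E and F. Some libraries stood apart. Liver transcripts were abundant in control 2 (albumin, Alb, 330270 normalized counts) and present in controls 5, 7 and 8 (1793, 3102 and 11402), while Alb was between 3.74 and 71.4 in the other 12. The 6 cardiac muscle markers summed to 463.9 in control 10, the highest of the libraries, whose platelet markers were the lowest. Controls 9 and 16 had low values of Uros, Ppox and some, but not all, red cell markers, as described below. In bulk RNA, fewer cells of a type cannot be told apart from less RNA per cell, and p-values here measure the spread between these animals only.

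The highest values of Alas1 and Alas2, the isoenzymes of the first step, lay in different libraries, controls 8 and 10. Control 8 was also high in Alas2, with 397682. Over the 16 libraries the 2 transcripts gave r = −0.27 (rho −0.44, permutation p = 0.32 and 0.091), and r = −0.48 without controls 8 and 14. Values are counts divided by DESeq2 size factors (normalized counts), and because transcript lengths were not used, levels are compared between libraries and not between genes. Alas2 had 290280 ± 141424 normalized counts (mean ± SD, n = 16), with a lowest value of 136028 in control 11, a median of 248085 and a highest value of 631489 in control 10. Alas2 alone made up between 0.612% (control 11, 95% Wilson interval 0.609% to 0.615%) and 1.61% (control 10, 1.607% to 1.617%) of all counts of a library, and all 8 transcripts together between 0.761% and 1.94%. Alas1 had 355.4 ± 249.0 normalized counts, with a lowest value of 172.1 in control 5, a median of 233.6 and a highest value of 1030 in control 8. The Alas1 mean was pulled up by controls 8 and 14 (847.6), the next highest being 460.2 in control 11. Its coefficient of variation (CV) was above that of 94.4% of the 8672 genes whose mean reached 100.

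The middle enzymes run in the cytosol. Alad, which joins 2 molecules of aminolevulinate into porphobilinogen, had 851.1 ± 330.0 normalized counts (439.3 in control 11, median 823.2, 1588 in control 10). Uros, which closes the ring as uroporphyrinogen III, had 324.6 ± 189.5 (46.0 in control 9, median 272.2, 808.0 in control 10). Urod, which decarboxylates that ring, had 6978 ± 3239 (3658 in control 11, median 5991, 15937 in control 10). Uros thus had the widest range of the 8 transcripts, 17.6-fold between its lowest and highest library, while Alad and Urod spanned 3.61-fold and 4.36-fold. Without controls 9 and 16 the range of Uros was 4.10-fold.

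The last 3 enzymes belong to the mitochondrion. Cpox, which oxidises coproporphyrinogen, had 314.0 ± 67.6 normalized counts (215.4 in control 15, median 306.9, 443.7 in control 10). Ppox, which makes protoporphyrin, had 865.8 ± 347.3 (255.2 in control 9, median 867.8, 1394 in control 8). Fech, which inserts iron into protoporphyrin, had 55709 ± 23682 (27486 in control 11, median 48060, 108536 in control 10). Cpox was the steadiest of the 8, with a CV of 21.5%, and the only one below the median CV of 24.8% over the 8672 genes. The CVs of Alad, Ppox, Fech, Urod, Alas2 and Uros lay between 38.8% (Alad) and 58.4% (Uros), and that of Alas1 was higher still. Control 10 held the highest value of 6 transcripts and control 11 the lowest value of 4.

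**Figure D1:**
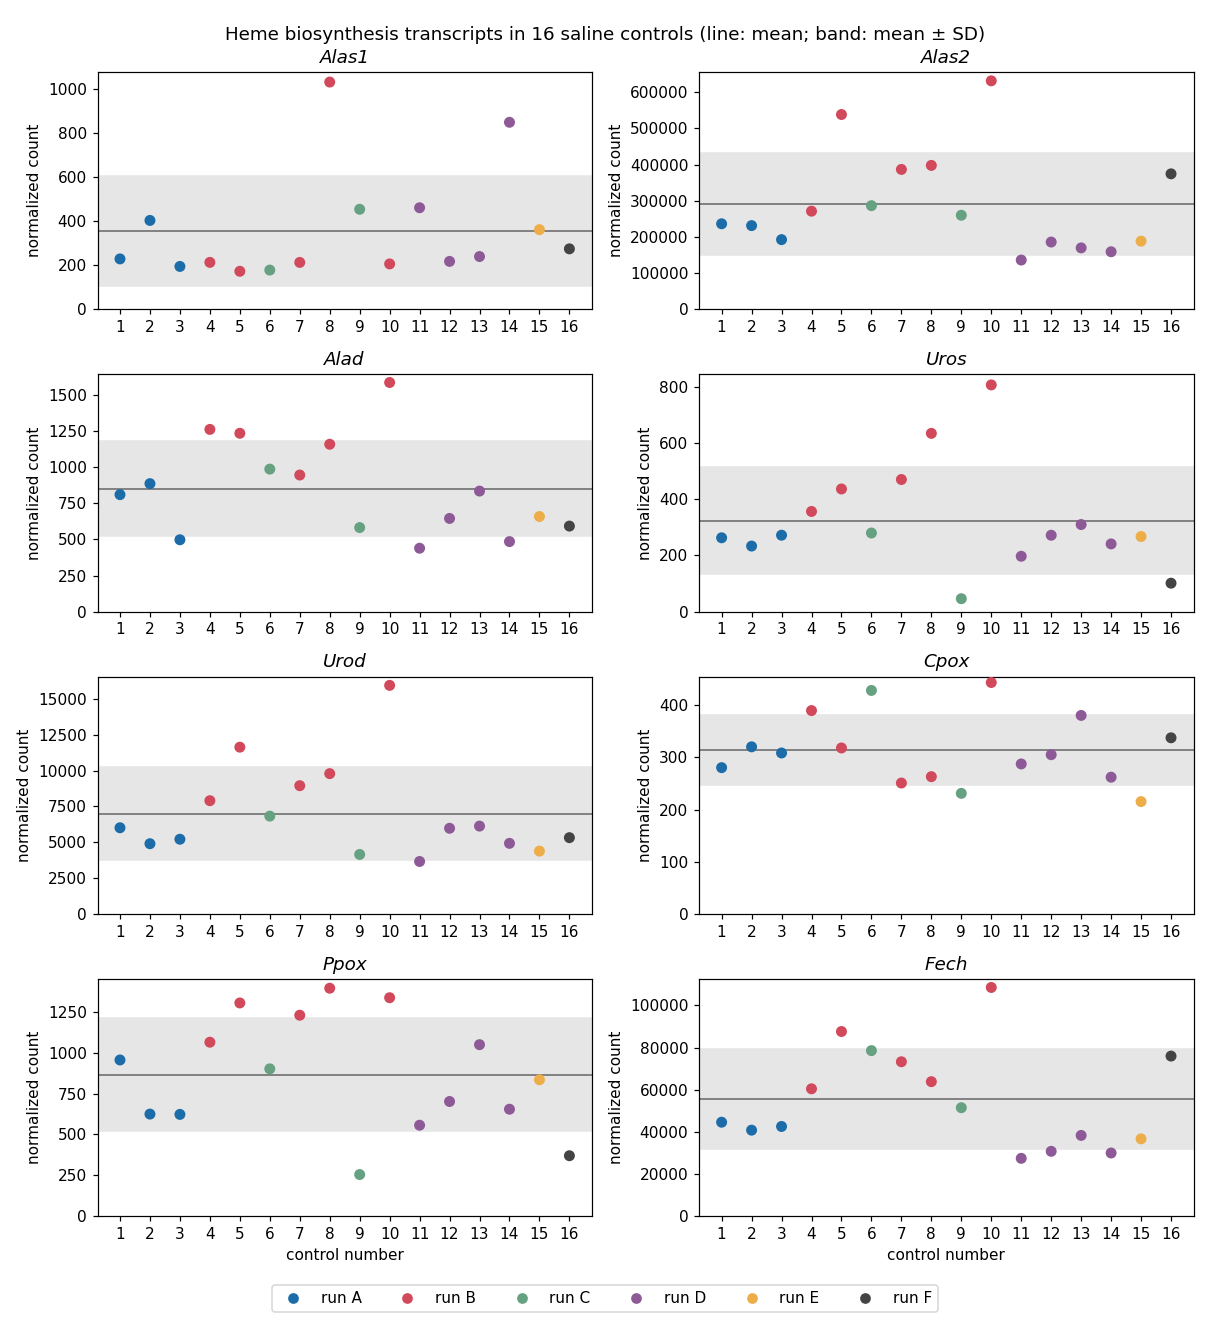
Normalized counts (vertical axes, linear, from 0) of the 8 heme biosynthesis transcripts in saline controls 1 to 16 (horizontal axes), 1 panel per gene, coloured by run code, with the mean as a line and the mean ± SD as a band. Run B is high for Alas2, Uros, Urod and Fech, Alas1 is carried by controls 8 and 14, and controls 9 and 16 are the lowest for Uros and Ppox.

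Of the 8 transcripts, 6 rose with the erythroid content of the library, and Alas1 and Cpox did not pass the test. The erythroid score is the mean log2 level of 15 red cell markers (such as Slc4a1, the anion exchanger of the red cell membrane, and Klf1, an erythroid transcription factor), none of them a heme enzyme. It ran from 11.32 in control 9 to 12.96 in control 10. A slope gives the log2 change of a transcript per 1 log2 unit of the score, from edgeR's quasi-likelihood test over 12518 genes. Urod had a slope of 0.96 ± 0.11 (SE, n = 16, adjusted p = 8.8e-05) and Alad 0.81 ± 0.14 (adjusted p = 0.0015). Alas2 had a slope of 0.89 ± 0.17 (adjusted p = 0.0039) and Fech, the last enzyme, one of 0.82 ± 0.17 (adjusted p = 0.0057). The slopes of Ppox (0.91 ± 0.19, adjusted p = 0.0065) and Uros (1.17 ± 0.26, adjusted p = 0.010) were of like size. Of all genes tested, 5.4% rose with the score. The median slope was 0.86 over the 8 transcripts and −0.07 over all genes.

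**Figure D2:**
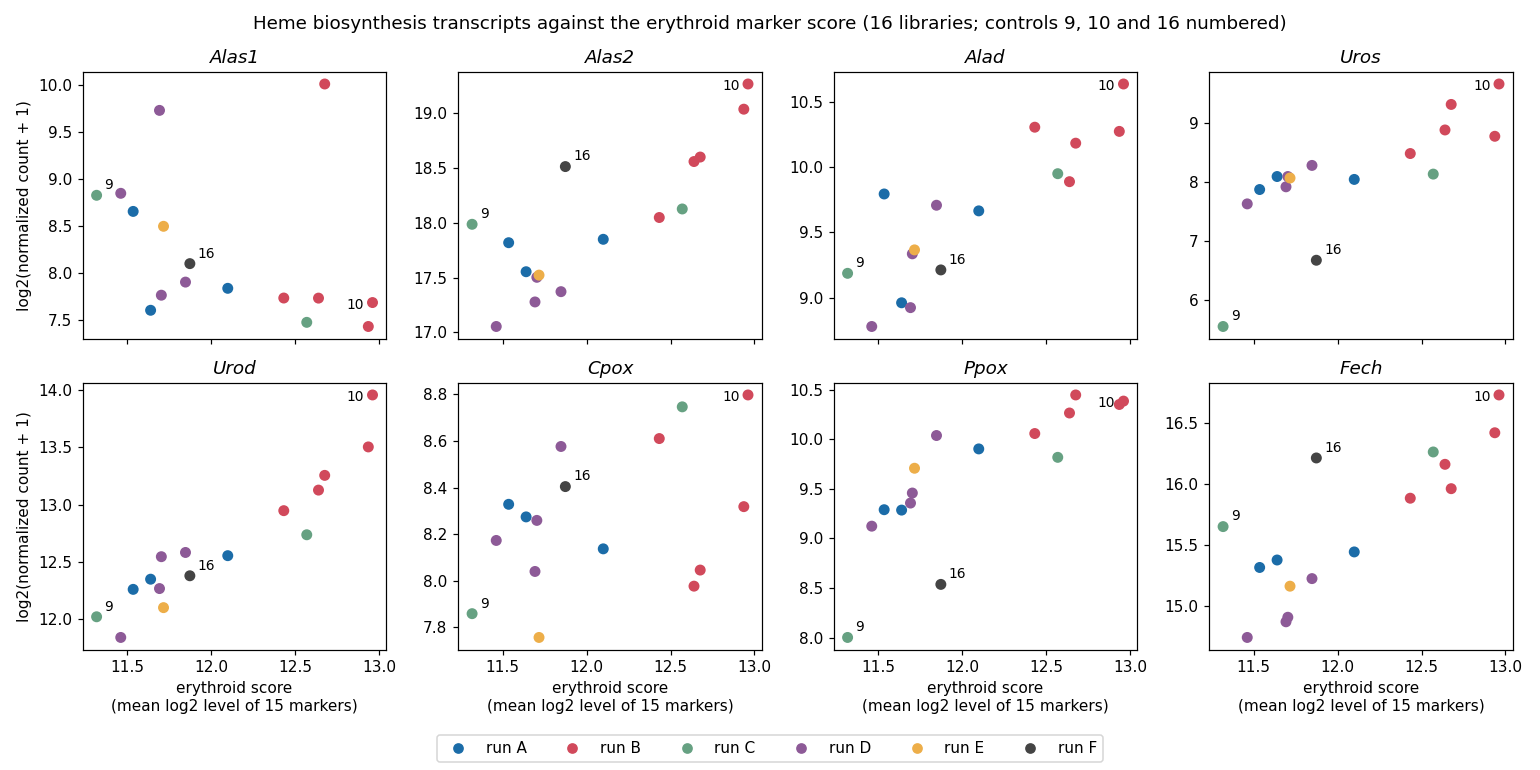
Log2(normalized count + 1) of each heme biosynthesis transcript (vertical axes) against the erythroid score, the mean log2 level of 15 red cell markers (horizontal axes), in 16 libraries coloured by run code. Urod follows the score most closely, and controls 9 and 16 lie below the other libraries for Uros and Ppox. Alas1 and Cpox did not pass the test on the score.

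These relations were partly shared with the run code. With the run code as a term in the fit, 0 of the 8 transcripts passed the test, as did 0 of 14219 genes (484 at an unadjusted p under 0.05). The slopes of the 6 stayed positive, from 0.48 for Alas2 to 1.67 for Uros, and 5 of the 6 had an unadjusted p under 0.05, Alas2 being the exception (p = 0.11). Scaling by total count left only Urod past the threshold (slope 0.88, adjusted p = 0.043), where 39 of 12518 genes rose. Without control 10, 312 of 12740 genes rose. Leaving out control 10 ended the call of Uros (slope 1.03, adjusted p = 0.094, the highest of the 16 fits that left out a library, the lowest being 0.0068). Without control 8, Alas1 fell with the score (slope −0.91, adjusted p = 0.046), against −0.30 ± 0.37 (adjusted p = 0.86) over all 16 libraries. Cpox had a slope of 0.22 ± 0.14 (adjusted p = 0.62) and passed in 0 of the 16.

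Per library, Urod correlated with the erythroid score at r = 0.94 (rho 0.94, both permutation p = 1e-05, the smallest that 100000 permutations can give), and at r = 0.92 without controls 5 and 10, the 2 libraries farthest from the median score. Centred within runs, which leaves 14 libraries in runs of at least 2, r was 0.81. The other 5 gave r between 0.75 (Uros) and 0.86 (Alad) and rho between 0.77 (Fech) and 0.88 (Ppox) over all 16, with permutation p from 2e-05 to 0.00079. Their r lay between 0.68 and 0.79 without controls 5 and 10, and between 0.54 (Alas2) and 0.93 (Ppox) centred within runs. Cpox gave r = 0.43 (rho 0.37, permutation p = 0.096 and 0.16), 0.29 without controls 5 and 10 and 0.55 centred within runs. Alas1 gave r = −0.33 (rho −0.51, permutation p = 0.22 and 0.047), −0.16 and −0.42 in the same order. All of these are among 24 relations computed between the 8 transcripts and 3 scores.

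Alas1 varied with white cell markers. The phagocyte score is the mean log2 level of 10 genes of neutrophils and monocytes (such as S100a8 and Csf3r) and the lymphocyte score that of 9 genes of T and B cells (such as Cd3e and Cd79b). Both scores opposed each other over the 16 libraries (r = −0.81, rho −0.88, permutation p = 7e-05 and 5e-05, r = −0.79 without controls 2 and 6 and −0.87 centred within runs), so a rise with one and a fall with the other are not separate results. Alas1 rose with the phagocyte score (slope 0.52 ± 0.14, adjusted p = 0.013) and fell with the lymphocyte score (slope −1.59 ± 0.46, adjusted p = 0.019). The share of genes that rose with the phagocyte score was 14.8% of 12518, and 12.3% of 13022 fell with the lymphocyte score. With 1 of the 8 transcripts called in each case, the calls were near these shares. The 2 libraries highest in Alas1, controls 8 and 14, were also the 2 highest in the phagocyte score, at 13.94 and 13.57. The correlation of Alas1 with the phagocyte score was r = 0.61 (rho 0.61, permutation p = 0.011 and 0.014), r = 0.71 without controls 2 and 6, and r = 0.60 centred within runs.

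A single library weighed on these calls. Without control 8 the adjusted p for Alas1 was 0.078 on the phagocyte score and 0.26 on the lymphocyte score, and with any other single library left out it was under 0.05 on both. With the run code as a term Alas1 had an adjusted p of 0.055 on the phagocyte score (slope 0.60) and 0.017 on the lymphocyte score (slope −2.19). Alas1 is also a liver enzyme, and the mean log2 level of 12 liver genes was 13.57 in control 2 and 9.31 in control 8, where Alas1 was 402.7 and 1030. It was also raised in controls 7 and 5 (7.06 and 5.99), where Alas1 was 212.3 and 172.1, and it was 1.34 in control 14, where Alas1 was 847.6. Without control 2 the calls of Alas1 held, and without control 8, as given above, they did not. The part of liver RNA in the Alas1 level was not tested.

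Cpox fell with the phagocyte score, by a small slope (−0.21 ± 0.06, adjusted p = 0.015). It was 1 of the 8 transcripts, near the 10.6% of all genes that fell. Cpox kept this call in all 16 fits that left out a library and with the run code as a term (slope −0.24, adjusted p = 0.030). Its correlation with that score was r = −0.71 (rho −0.75, permutation p = 0.0028 and 0.0014), r = −0.68 without controls 2 and 6 and −0.80 centred within runs. Scaled by total count the slope was −0.19 and the adjusted p 0.31. Its slope on the lymphocyte score was 0.51 ± 0.23 (adjusted p = 0.12). Total count scaling moved the median slope of all genes on that score from 0.11 to 0.55, and 6351 of 13022 genes rose while 78 fell. There Cpox rose with it (slope 0.65, adjusted p = 0.0011), near that median. Alas1 did not pass the test there (slope −0.41, adjusted p = 0.38), with a slope of −0.96 relative to that median. The other 6 transcripts passed the test on neither score, with slopes from −0.13 to 0.06 on the phagocyte score and from −0.46 to −0.10 on the lymphocyte score.

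**Figure D3:**
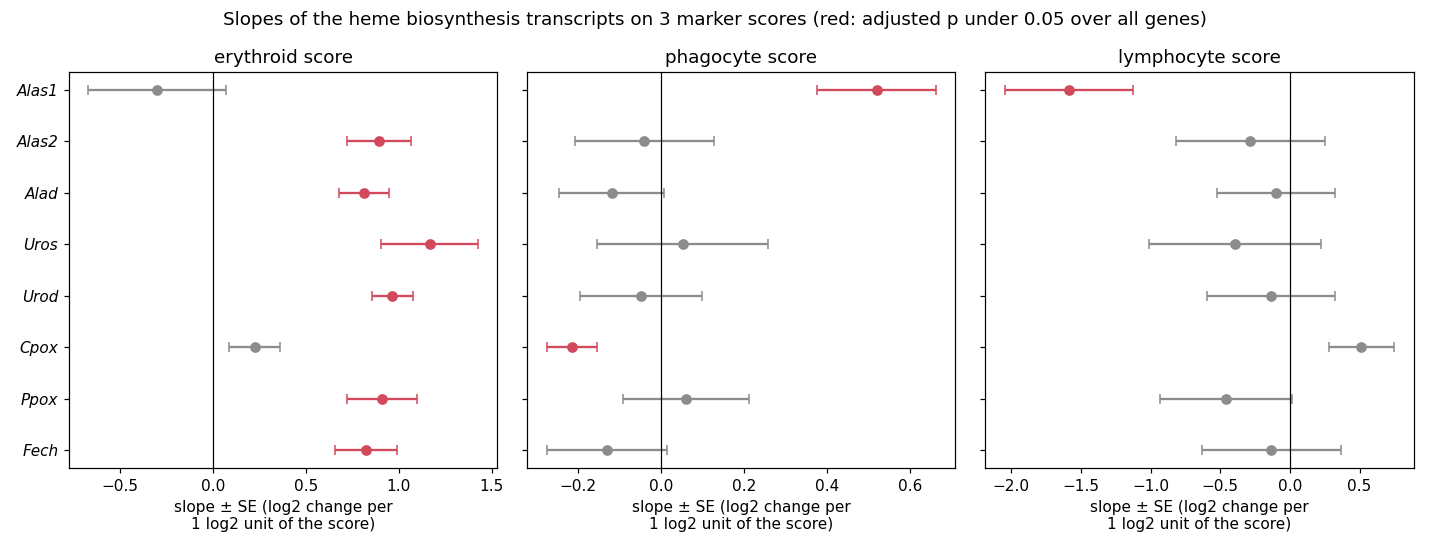
Slopes with their standard errors (horizontal axes, log2 change per 1 log2 unit of the score, each panel with its own scale) of the 8 heme biosynthesis transcripts (vertical axis) on the erythroid, phagocyte and lymphocyte scores in 16 libraries; red marks an adjusted p under 0.05. Alas2, Alad, Uros, Urod, Ppox and Fech rise with the erythroid score, while Alas1 and Cpox pass the test only on white cell scores.

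The 6 transcripts that rose with the erythroid score did not all rise together. Alas2 and Fech, the first and the last enzyme, followed each other closely (r = 0.95, rho 0.96, both permutation p = 1e-05), with r = 0.92 without controls 5 and 10 and r = 0.78 centred within runs. Uros and Ppox did the same (r = 0.95, rho 0.93, both permutation p = 1e-05), with r = 0.94 without controls 9 and 10 and r = 0.88 centred within runs. Between these pairs the relation was weaker. Alas2 and Uros gave r = 0.40 (rho 0.57, permutation p = 0.13 and 0.024), r = 0.11 without controls 5 and 10, and r = 0.42 centred within runs. Without controls 9 and 16 their r was 0.89, against 0.87 for Uros and Ppox. Urod went with both pairs, at r = 0.85 with Alas2 and 0.77 with Uros over all 16. In all, 28 pairs of transcripts were computed, and fits on the level of Alas2 and of Uros were added after the values had been seen.

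In controls 9 and 16 one pair was low and the other was not. Uros was 46.0 in control 9 and 101.3 in control 16, and between 197.2 and 808.0 in the other 14 libraries. Ppox was 255.2 and 370.2 there, and between 556.6 and 1394 in the other 14. Alas2 was 259875 in control 9 and 374353 in control 16, and Fech 51499 and 75987, all within the range of the other libraries. So there were 0.177 and 0.271 Uros counts per 1000 Alas2 counts in controls 9 and 16, and 0.812 to 1.83 in the others. Fech per 1000 Alas2 counts, by contrast, lay between 161 and 274 in all 16 libraries, with 198 and 203 in controls 9 and 16.

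Fits of all genes on the levels of Alas2 and Uros use the same 16 values as these correlations and are no further support for the pairing. On the level of Alas2, 3 of the other 7 transcripts rose, namely Fech (slope 0.85 ± 0.10, adjusted p = 2.2e-05), Urod (0.73 ± 0.12, adjusted p = 0.00047) and Alad (0.62 ± 0.14, adjusted p = 0.0079), while 6.38% of 12761 genes rose. Uros (0.66 ± 0.26, adjusted p = 0.19) and Ppox (0.43 ± 0.21, adjusted p = 0.34) did not pass. On the level of Uros, 2 of the other 7 rose, Ppox (0.67 ± 0.07, adjusted p = 8.3e-05) and Urod (0.44 ± 0.09, adjusted p = 0.029), while 0.714% of 13437 genes rose. Alas2 and Fech had slopes of 0.24 ± 0.13 and 0.18 ± 0.13 there (adjusted p = 0.98 and 1.0). Without controls 9 and 16, 5 of the other 7 rose on the level of Alas2 (Alad, Uros, Urod, Ppox and Fech), where 6.51% of 12990 genes rose, and 5 on that of Uros (Alas2, Alad, Urod, Ppox and Fech), where 5.67% rose. In those 14 libraries r was 0.89 between Alas2 and Uros, 0.83 between Alas2 and Ppox and 0.87 between Uros and Ppox, so the separation of the pairs rested on controls 9 and 16. With the run code as a term, 0 of 7 passed on either level, although Ppox kept a slope of 0.65 on Uros (unadjusted p = 0.00036). The call of Urod on the level of Uros was lost without control 7, 8 or 10, and that of Alad on the level of Alas2 without control 10 (adjusted p = 0.092).

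**Figure D4:**
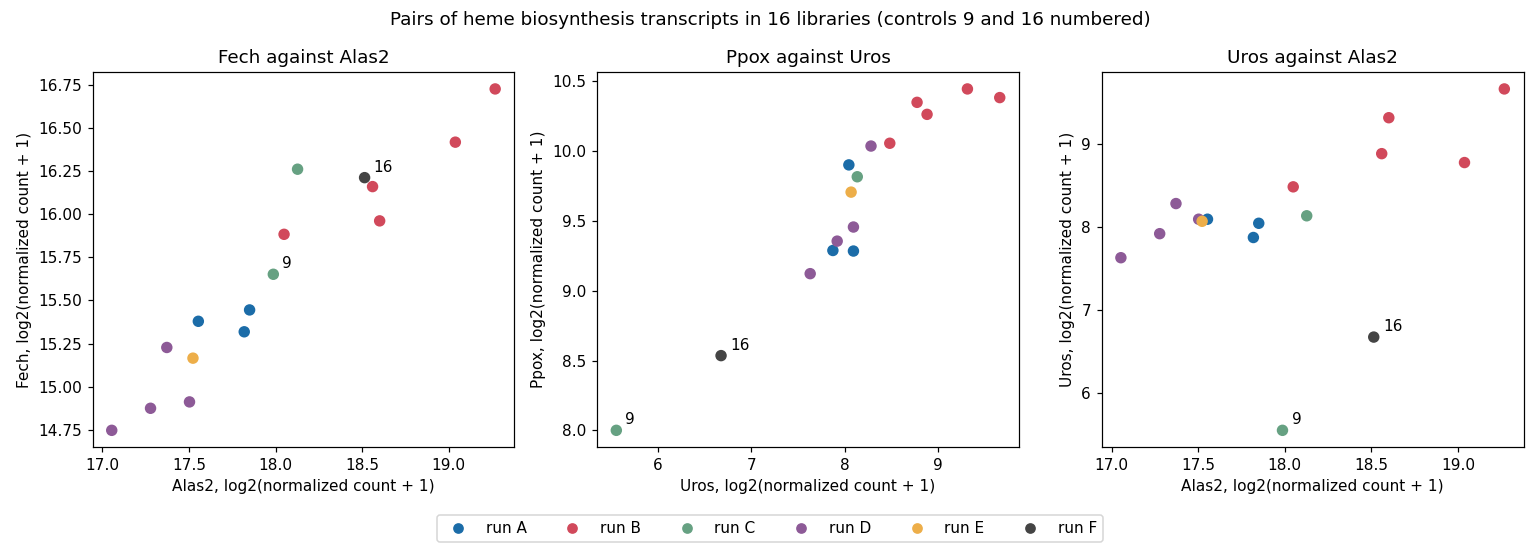
Fech against Alas2, Ppox against Uros and Uros against Alas2, as log2(normalized count + 1) on both axes, in 16 libraries coloured by run code. Controls 9 and 16 (numbered) lie with the other libraries in the first panel, at the low end of the line in the second, and below the other 14 libraries in the third.

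For each transcript the 3 genes with the most similar pattern were sought. Likeness was the Pearson r of log2 levels over the 16 libraries, among genes whose mean reached 100, and is given as a description. Uros was most like Kel, a blood group antigen of the red cell membrane (r = 0.97), Nprl3, which lies beside the alpha globin genes (0.97), and Ppox (0.95). Ppox was most like Kel (0.98), Gypc, a glycophorin of the red cell membrane (0.96), and Uros (0.95). Kel, Nprl3 and Gypc shared the low values of controls 9 and 16, Kel having 6934 and 10004 normalized counts there and 17742 to 60597 in the other 14. This follows in part from the choice by r, in which those libraries weigh heavily. Kel and Gypc are also members of the erythroid score. Of the score's other members, Rhag was also low in both controls (389.3 and 601.6). Others were not, such as Slc4a1 (46709 and 82223, with a mean of 58253 over the 16) and Tal1 (1469 and 3611, with a mean of 1886).

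Alas2 was most like Bcas2, Specc1 and Hagh (r = 0.97 to 0.98), and Fech most like Ccni, Memo1 and Arf5 (0.95 to 0.97), none of which was below the range of the other 14 libraries in controls 9 and 16. Urod, which rose on both levels, was most like Rhd, the rhesus blood group protein (0.97), Fbxo7 (0.97) and Itsn1 (0.95). Alad was most like Sec14l2, Fam82a2 and Hadha (0.90 to 0.93). Alas1 was most like C3, a complement protein (0.90), Saal1 (0.89) and Hspa5, a chaperone of the endoplasmic reticulum (0.88). For Cpox no gene came above r = 0.79, the nearest being Csrp2bp, PRPS1 and Pgm2l1.

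The start regions of Uros and Ppox are shown because these transcripts were low together in controls 9 and 16, where Alas2 was not. They are the 250 bases before a transcript start in RefSeq, on the build GRCr8, 5′ to 3′ on the strand of the gene; capitals would mark a match to a GATA motif (the letters AGATAA or AGATAG, or the same with T as their first base, TGATAA or TGATAG, on either strand) or to CACCC (either strand).
Uros, chr1:197942229-197942478, minus strand: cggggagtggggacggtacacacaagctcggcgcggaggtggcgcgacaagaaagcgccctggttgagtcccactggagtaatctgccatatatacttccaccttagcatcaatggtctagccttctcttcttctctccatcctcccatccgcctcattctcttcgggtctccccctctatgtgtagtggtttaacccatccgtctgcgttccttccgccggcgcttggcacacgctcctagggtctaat
Ppox, chr13:86234247-86234496, minus strand: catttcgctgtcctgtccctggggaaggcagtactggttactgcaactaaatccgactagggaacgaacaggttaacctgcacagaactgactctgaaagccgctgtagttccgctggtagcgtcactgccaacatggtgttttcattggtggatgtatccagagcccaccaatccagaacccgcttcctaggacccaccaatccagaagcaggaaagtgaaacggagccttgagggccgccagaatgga

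Neither window holds a match. A GATA motif was found in the windows of 2 of the 7 transcripts that have one in RefSeq's table (Alas2 and Fech) and in 27.0% of 33469 windows in all, and CACCC in 2 of 7 (Alas1 and Alad) and in 49.2%. The start used for Uros lies 955 bases, that for Ppox 782 bases and that for Alas2 4800 bases inside the annotated gene, so the windows need not be those used in blood. Cpox had no window. A match is a match of letters only.

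Between run codes, run D was lower than run B for most of the pathway. Alas2 was 271109 to 631489 in the 5 libraries of run B and 136028 to 185811 in the 4 of run D, a change of −1.44 ± 0.26 on the log2 scale (adjusted p = 0.027, edgeR). Fech was 60470 to 108536 and 27486 to 38359 (−1.30 ± 0.22, adjusted p = 0.027). Uros (−1.07 ± 0.23, adjusted p = 0.040), Urod (−1.05 ± 0.24, adjusted p = 0.045) and Alad (−1.03 ± 0.24, adjusted p = 0.047) were also lower in run D. These are 5 of 8 transcripts, while 2.26% of 12952 genes were lower in run D. For all 5, and for Ppox (1064 to 1394 against 556.6 to 1049, −0.76 ± 0.21, adjusted p = 0.088), the runs did not overlap, as was so for 5.32% of the 12952 genes with every library of run D below every library of run B. Cpox (−0.09 ± 0.19) and Alas1 (0.30 ± 0.58) had adjusted p of 0.99 and overlapped.

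Red cell markers moved with these transcripts. The erythroid score was 12.43 to 12.96 in run B and 11.46 to 11.85 in run D. Of its 15 genes 7 fell in run D, against 2.26% of 12952 genes. An unadjusted p under 0.05 was found for 14 of the 15, and for 11.3% of all genes in either direction. The median change was −1.14 for the 15, −1.04 for the 8 heme transcripts and 0.04 for all genes. The part of red cell content in the difference between runs was not tested. Calls were close to the threshold: without control 5, 11, 12, 13 or 14 none of the 8 passed, without control 1, 2, 7, 8 or 10 only Alas2 and Fech did, and without control 3 Alad was kept as well. Under total count scaling, which moved the median of all genes from 0.04 to 0.53, none of the 8 passed, and 6 of 12952 genes were called lower. Alas2 changed by −0.87 there, which is −1.40 relative to that median.

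Run A was compared with both. Against run A, run B was higher by 1.00 ± 0.28 for Alas2, 1.06 ± 0.26 for Uros, 0.99 ± 0.26 for Urod and 0.87 ± 0.24 for Fech on the log2 scale, with adjusted p from 0.12 to 0.14. In edgeR, 0 of the 8 transcripts and 0.0% of 12952 genes passed, with 6 of the 8 and 13.6% of genes at an unadjusted p under 0.05. DESeq2 called 5 of the 8 higher in run B (Alas2, Uros, Urod, Ppox and Fech), with 524 genes higher and 39 lower in all. Without control 4 edgeR called 4 of the 8, but the share of all genes in that fit is not given here. Between runs A and D, 0 of the 8 and 0.0% of genes passed in edgeR, 0 of the 8 and 5.41% of genes had an unadjusted p under 0.05, and DESeq2 called 0 of the 8, with 8 genes higher and 6 lower in all. Changes in that comparison ran from −0.44 ± 0.28 (Alas2) to 0.68 ± 0.67 (Alas1).

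The balance of the isoenzymes of the first step also varied from library to library. There were 187.5 Alas2 counts per Alas1 count in control 14, a median of 924 over the 16 libraries and 3128 in control 5. The ratio is compared between libraries only, since the lengths of the transcripts were not used. It was 574.1 to 1035 in run A, 386.3 to 3128 in run B and 187.5 to 856.3 in run D, and the ranges overlapped. Runs held 43.5% of the sum of squares of the log2 ratio (exact permutation p = 0.081, smallest possible p 3.6e-05). This p is the share of 27720 assignments whose sum of squares between runs was at least as large. With 1 library left out at a time they held 34.4% (without control 14, exact permutation p = 0.19) to 69.5% (without control 8, the low library of run B, exact permutation p = 0.0052), and p was between 0.062 and 0.19 in all but the last.

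Genes that supply iron and glycine to the pathway, move porphyrins, or use and break down heme were read from a list of 23, of which 22 were tested. With the erythroid score 10 of the 22 rose and 0 fell, while 5.4% of 12518 genes rose, and the median slope over the 22 was 0.41. An unadjusted p under 0.05 was found for 12 of the 22 and for 12.3% of all genes. DESeq2 also gave 0 of the 22 that fell. The 3 with the steepest slopes were Slc25a37, mitoferrin, the iron importer of erythroid mitochondria (0.95 ± 0.19, adjusted p = 0.0045), Blvrb, a biliverdin and flavin reductase (0.94 ± 0.16, adjusted p = 0.0018), and Abcb10, a transporter of the mitochondrial inner membrane (0.87 ± 0.13, adjusted p = 0.00054). Slc25a38, the glycine carrier that feeds the first step, had a slope of 0.83 ± 0.11 (adjusted p = 0.00023), and Eif2ak1, the heme-regulated kinase of translation, 0.85 ± 0.09 (adjusted p = 3.8e-05); these were named after their values had been seen. As for the enzymes, 0 of 22 passed with the run code as a term and 1 under total count scaling, and 6 without control 10. Of all genes, 0 of 14219, 39 of 12518 and 312 of 12740 rose in these fits, in that order.

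With the phagocyte score, where Alas1 rose, 4 of the 22 rose and 2 fell, near the shares of all genes that rose (14.8%) and fell (10.6%). Chosen after their values were seen, the 4 were Hebp1, a heme-binding protein (0.71 ± 0.12, adjusted p = 0.00036), Hmox1, the inducible heme oxygenase (0.40 ± 0.11, adjusted p = 0.014), Bach1, a heme-sensing repressor (0.33 ± 0.07, adjusted p = 0.0023), and Ireb2, an iron sensor (0.26 ± 0.07, adjusted p = 0.010). Nfs1, the cysteine desulfurase (−0.26 ± 0.06, adjusted p = 0.0033), and Pgrmc1 (−0.33 ± 0.11, adjusted p = 0.040) fell. Pgrmc1 was 3457 normalized counts in control 2, the library rich in liver transcripts, and 819.9 to 1184 in the other 15, and without control 2 its slope was −0.08 (adjusted p = 0.30). Between runs B and D, 6 of the 22 were lower in run D and 0 higher, while 2.26% of 12952 genes were lower. Slc25a37 (−1.36 ± 0.27, adjusted p = 0.031) and Blvrb (−1.35 ± 0.27, adjusted p = 0.032) were among the 6.

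**Figure D5:**
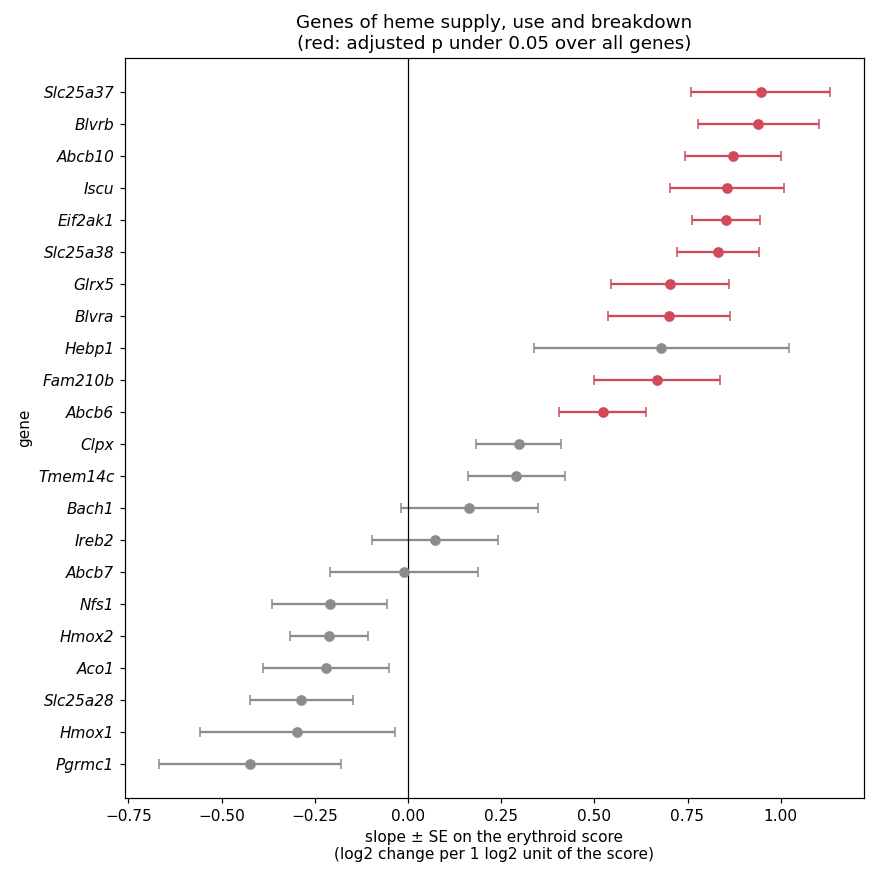
Slopes with their standard errors on the erythroid score (horizontal axis, log2 change per 1 log2 unit of the score) for 22 genes of heme supply, use and breakdown (vertical axis), ordered by slope, in 16 libraries; red marks an adjusted p under 0.05. The 10 genes in red pass the test and have positive slopes, led by Slc25a37, Blvrb and Abcb10, and the 7 lowest slopes, none past the test, are negative.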

How the data were processed

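Whole blood RNA of 16 saline control rats was analysed. Per the labels and the study's methods, reads were converted with CASAVA 1.8.2, aligned with Bowtie 0.12.9 to the rat Ensembl transcriptome (rn5) and quantified with RSEM 1.2.0. The authors deposited these estimated counts per gene as RSEM gave them, dividing reads that fit several transcripts, with no normalization. They were rounded here to whole numbers, over the 18031 genes listed in every file. The study's replacement of outlying values was not applied. Library totals ran from 21466776 to 31189549, and 3 counts correspond to 0.096 to 0.14 CPM. Counting error alone is covered by these intervals and floors.

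Slopes on marker scores and changes between runs came from edgeR 4.0.16 (TMM, filterByExpr, quasi-likelihood F-test, R 4.3.3), with Benjamini-Hochberg adjustment over all genes tested and a threshold of 0.05. The code was tested on simulated counts. DESeq2 1.42.0 and limma 3.58.1 (limma-trend) were alternatives, beside other scalings, no filter, the run code as a term, and libraries left out. Log2 levels use a pseudocount of 1. Correlations used 100000 permutations, two-sided. The labels do not say what the run codes stand for. These codes were read from file names and treated as batches. They cannot be told apart from experiments or dates here, which the labels do not give.

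The transcripts, marker lists and list of 23 heme-related genes were chosen with earlier results of these data known. A further gene of that list is not reported here. Genes named were the 8 enzymes, up to 3 per direction of the list by slope on the erythroid score, and for each enzyme the 3 most alike genes with a symbol and a mean of at least 100. Other genes of the list were named after their values were seen, as said beside them. Values were tabulated in Python 3.11.15 (pandas 2.3.3, numpy 2.4.6), tested with scipy 1.17.1 and plotted with matplotlib 3.10.9.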

Additional observations from a re-analysis of the deposited data

Results flagged for a closer look

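Alas1 in control 8 stood far above the other 4 libraries of run B, with 1030 normalized counts against 172.1 to 212.5. The gap to the nearest library was 0.883 of the range of that run. Of 18 sets of values examined in this way this was the only one, and chance alone gives about 1 in 20. Control 8 also had the highest phagocyte score of the 16 libraries (13.94), the lowest lymphocyte score (10.11) and raised liver markers (Alb 11402 normalized counts). Their part in its Alas1 level was not tested.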

How the results depend on the processing

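The count of transcripts past the threshold depended most on the run code and on the scaling. With the run code as a term, the 6 on the erythroid score became 0, the 3 on the level of Alas2 and the 2 on the level of Uros became 0, and the 2 on the phagocyte score became 1. Under total count scaling these were 1, 1, 1 and 1, and the 5 between runs B and D became 0. Without the filter on low counts the last was 2, where 203 of 17784 genes were lower. DESeq2 raised the count between runs A and B from 0 to 5, where 524 of 12952 genes were higher. Without controls 9 and 16, the levels of Alas2 and Uros gave 5 each, and without control 10 the level of Uros gave 1, where 51 of 13415 genes rose. For the other fits that left out 1 library, the shares of all genes are not given here. Leaving out 1 library at a time gave 0 to 5 between runs B and D, 0 to 4 between runs A and B (4 without control 4), 1 to 2 on the level of Uros, 0 to 1 on the lymphocyte score and 1 to 2 on the phagocyte score (the lower value without control 8 in both), and a share between runs of the Alas2 to Alas1 ratio of 34.4% to 69.5%. The 19 calls of single transcripts had 462 values under alternatives, of which 380 kept their direction and call, 82 kept the direction only, and 0 turned. Of 978 values of transcripts that had not passed, 59 changed sign, 0 of them past the threshold. The lone call on the lymphocyte score under total count scaling was Cpox, higher, in place of Alas1, lower. In that fit 6351 of 13022 genes were called higher and 78 lower. Summing entries that share a symbol was not run, since each transcript had a single entry. No paired analysis was possible because the 16 libraries form a single group and their numbers only name animals. Run codes hold 1 to 5 libraries, so differences within a run were measured on few animals, and Uros in control 9 rests on 46 counts.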

Other observations

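On the level of Alas2, 10 of the 22 genes of heme supply, use and breakdown rose and 0 fell, while 6.38% of all genes rose. With the run code as a term 0 of the 22 and 0 of 14219 genes rose. Under total count scaling 3 of the 22 and 91 of 12761 genes did. Among the 10 that rose in the main fit were Iscu, the scaffold of iron-sulfur clusters (slope 0.83 ± 0.08, adjusted p = 7.9e-06, edgeR), and Fam210b, a mitochondrial partner of iron import (0.78 ± 0.10, adjusted p = 5.2e-05). Clpx, the unfoldase that acts on the enzyme of the first step (0.32 ± 0.09, adjusted p = 0.036), was another. These genes were named after their values had been seen.

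Globin transcripts that remained after depletion took 2.96% of the counts in control 1 and 15.5% in control 2, over 11 globin entries. How far this share follows the depletion step rather than globin expression was not tested. The 8 transcripts gave r between −0.06 (Alad) and 0.24 (Cpox) and rho between −0.13 (Alas2) and 0.31 (Cpox) with the log2 of that share over the 16 libraries, and the lowest of the 16 permutation p-values was 0.25. Without controls 1 and 9, the libraries farthest from the median share, r lay between −0.26 (Uros) and 0.23 (Alas1). Centred within runs it lay between 0.09 (Alas1 and Urod) and 0.43 (Uros).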
